A study of Mus musculus with 16 samples.

Results

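Peripherin (Prph) and the neurofilament subunits of light, medium and heavy chain (Nefl, Nefm, Nefh) were examined in RNA of tagged ribosomes from prepronociceptin neurons of the mouse hypothalamus. These 4 genes were selected by name, on condition that the authors' deposited tables list them, out of 8289 gene identifiers listed for at least 1 of 2 diets. All 4 were listed for both diets. Because a gene enters these tables only through a significant difference between immunoprecipitate and input, that difference chose the genes, and it is given here as a description.

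All groups came from PNOC-L10a-EGFP mice of strain C57BL/6N, aged 10 to 12 weeks, in which a fluorescent tag marks ribosomes of neurons that express prepronociceptin. The mice had received control diet (CD, called chow here) or high-fat diet (HFD) for 3 days. For each diet, 4 input libraries of hypothalamic RNA and 4 immunoprecipitate (IP) libraries of RNA bound to tagged ribosomes were labelled, 16 libraries in all. No group lacked the transgene, and the labels do not say which promoter element drove it, whether mice were pooled, or whether an input and an immunoprecipitate that share a number share their tissue. The deposited tables give 1 FPKM value per group (fragments per kilobase of transcript, scaled to library size), so depth and the spread between libraries are unknown. Every FPKM, log2 fold, statistic, p and q given for a single diet is the authors' deposited value, with the fold taken as IP over input.

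Neurofilaments are intermediate filaments that fill axons and set their calibre. The light chain forms the core of the filament. The medium and heavy chains add long tails with repeated lysine-serine-proline sites, at which kinases add phosphate. Alpha-internexin (Ina) is a further neurofilament subunit in the central nervous system. Peripherin can assemble with these subunits and is best known from peripheral sensory, autonomic and motor neurons. In the mouse hypothalamus it has been described in histamine neurons of the tuberomammillary nucleus. Vimentin, nestin and the glial protein GFAP build intermediate filaments of glia and precursor cells.

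The genes lie on 3 chromosomes of GRCm38, in GENCODE M21. Prph (ENSMUSG00000023484) is on the plus strand of chromosome 15 at 99055174 to 99058978, and no other annotated gene overlaps it. Its transcript Prph-201 has 9 exons and 1425 coding bases. Nefh (ENSMUSG00000020396) spans 4938754 to 4948064 of chromosome 11, minus strand, with 4 exons, 3270 coding bases and no overlapping gene. The coding sequence of Nefh holds 51 in-frame runs of codons for lysine, serine and proline, that of Nefm-201 holds 4, and those of Nefl and Prph hold 0. Nefl (ENSMUSG00000022055) spans 68083863 to 68089095 of chromosome 14, plus strand, and its 4 exons hold 1629 coding bases. Nefm (ENSMUSG00000022054) spans 68082590 to 68124846 of the same chromosome, minus strand, a stretch that contains all of Nefl.

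The shared locus bears on the values of Nefl and Nefm. The transcript Nefm-201 shares 0 exonic bases with Nefl, whereas the last exon of Nefm-202 runs back over the first exon of Nefl on the opposite strand. They share 1108 exonic bases, which is 32.8% of the Nefl transcript and 30.1% of Nefm-202. The sources used here do not say that reads were assigned by strand, so reads from those bases cannot be told apart, and the authors' deposited tables give both genes the same locus with separate values. The sequence below is the end of exon 1 of Nefl, read on the plus strand at chr14:68084827-68085009 (GENCODE M21, GRCm38), and is shown because it codes for protein in both genes. Capitals mark the 144 bases that are coding in Nefl and, on the opposite strand, in Nefm-202. The 39 bases in lower case belong to the exon of Nefl only.
Nefl exon 1 end: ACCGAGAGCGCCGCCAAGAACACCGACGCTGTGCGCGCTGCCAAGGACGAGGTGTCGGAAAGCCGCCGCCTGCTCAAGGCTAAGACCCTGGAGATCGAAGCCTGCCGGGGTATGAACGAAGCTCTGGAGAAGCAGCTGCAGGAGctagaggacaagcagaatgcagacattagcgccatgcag

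**Figure D1:**
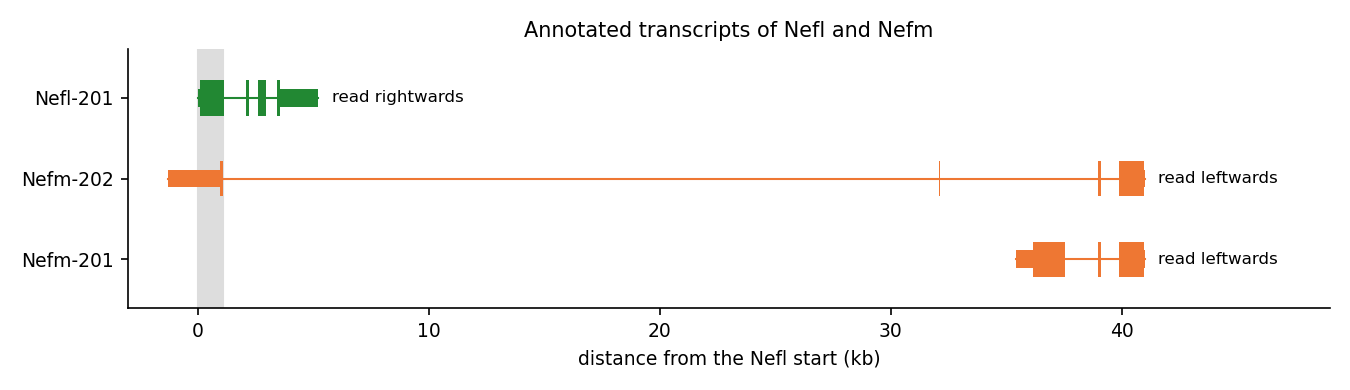
Annotated transcripts of Nefl (green) and Nefm (orange) by distance from the Nefl start in kilobases; thin boxes are untranslated exon parts, tall boxes coding parts, lines introns, and the grey band the 1108 bases that both genes share. Nefm-202 reaches the first exon of Nefl and Nefm-201 does not.

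Prph was the least abundant of the 4 genes and the one with the highest enrichment. A promoter sequence was found for 1 of the 4 genes, Prph, in the RefSeq promoter table of GRCm38.p6. The 250 bases before its start, at chr15:99054924-99055173 on the plus strand, are shown because Prph stands apart from the neurofilament genes in every group.
Prph promoter: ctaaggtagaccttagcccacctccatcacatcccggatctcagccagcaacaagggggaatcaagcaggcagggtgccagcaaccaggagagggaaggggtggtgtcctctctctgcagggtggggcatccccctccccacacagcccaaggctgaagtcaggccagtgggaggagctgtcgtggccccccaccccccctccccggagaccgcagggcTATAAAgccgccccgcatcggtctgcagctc
Capitals mark a TATA box (TATAAA), which begins 31 bases before the start. On either strand this motif occurs in 12.4% of 32851 promoter windows of the same length. A GC box (GGGCGG) occurs once in the Prph window, on the opposite strand, and in 32.7% of all windows. No CCAAT box (CCAAT) is in the window on either strand, against 33.8% of windows that hold one. The motifs do not overlap one another, and these matches describe letters only.

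Chow was compared first, to describe the level of each filament transcript in RNA of tagged ribosomes relative to that in whole hypothalamus. In chow-fed mice the input held 2.90 FPKM of Prph and the IP 11.3 FPKM. That is a 3.88-fold enrichment with a deposited log2 fold of 1.96 (statistic 5.43, q = 0.000379). That q is the smallest listed for either diet and is shared by many tests, so it does not rank Prph among them. Prph ranked 22 of 3597 enriched tests, close to Pnoc, the gene that defines the tagged neurons, which went from 4.62 to 19.9 FPKM (log2 fold 2.11).

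The neurofilament subunits were far more abundant and enriched by less. Nefl, the core subunit, went from 171 (chow input) to 237 FPKM (chow IP), a log2 fold of 0.47 (statistic 1.49, q = 0.0199). Nefm, the medium chain, went from 84.7 to 129 FPKM, a log2 fold of 0.60 (statistic 1.35, q = 0.0385). Nefh, the heavy chain with the most phosphorylation sites, went from 19.6 to 25.8 FPKM, a log2 fold of 0.39 (statistic 1.69, q = 0.00856). The IP value was above the input value for all 4 genes in chow. Of the 4, Nefm had the q nearest to the limit of the table, whose largest listed q is 0.0499.

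In the high-fat table all 4 genes were enriched again. Prph went from 3.59 to 11.5 FPKM between input and IP, a log2 fold of 1.67 (statistic 4.49, q = 0.000379), and ranked 28 of 3613 enriched tests. Nefl went from 173 to 246 FPKM, a log2 fold of 0.51 (statistic 1.58, q = 0.0162). Nefm went from 82.8 to 146 FPKM, a log2 fold of 0.82 (statistic 1.87, q = 0.00517). Of the 4 genes, Nefm was the only one whose fold was higher than in chow by over 0.1 log2 units. Nefh went from 19.0 to 26.2 FPKM, a log2 fold of 0.46 (statistic 1.95, q = 0.00132).

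**Figure D2:**
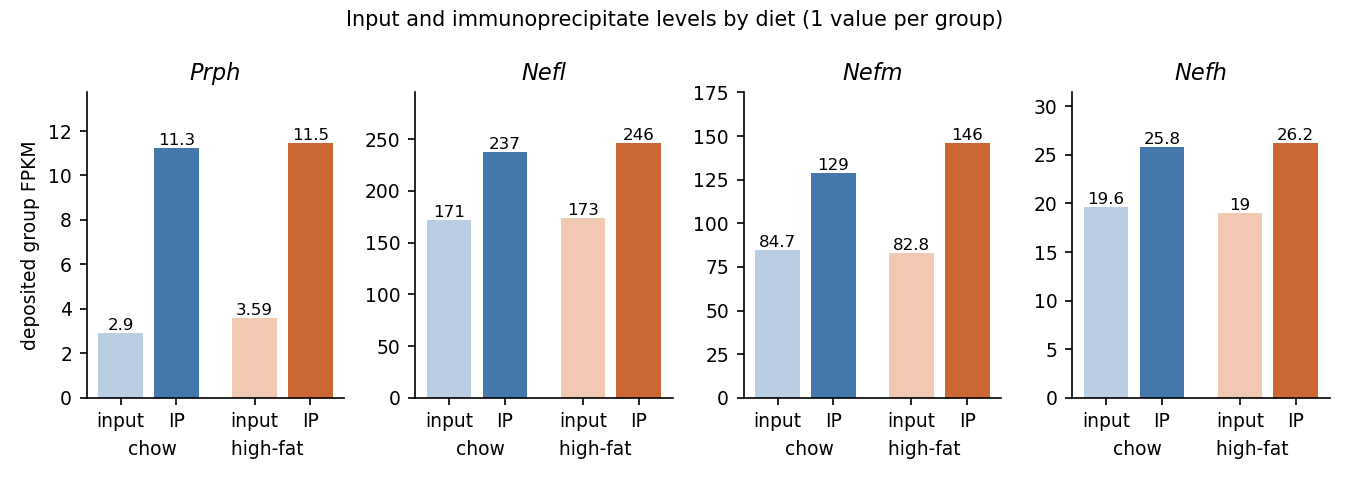
Deposited FPKM of the 4 genes in input and immunoprecipitate (IP) for chow and high-fat diet, 1 bar per group of 4 libraries and no error bars, since no value per library is given; each panel has its own axis from 0. The IP bar is above the input bar in each pair, and Prph rises most, from 2.90 to 11.3 FPKM in chow.

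These counts are to be read beside the tables as a whole. Enriched at a q of 0.05 were 4 of 4 genes in each diet, but the rule chose them on that contrast, and 53.8% of the listed chow tests and 55.2% of the listed high-fat tests were enriched. At least a 2-fold enrichment was reached by 1 of 4 genes, Prph, against 4.38% of listed tests in chow and 3.24% in the high-fat table. Among listed tests that reached 1 FPKM in a group, the log2 fold had its median at 0.41 in chow (quartiles -0.95 and 0.64) and at 0.42 in the high-fat table (quartiles -0.92 and 0.63). Relative to that median, Prph stood at 1.54 and 1.25 and Nefm at 0.19 and 0.40, in chow and the high-fat diet. On the same relative scale Nefl stood at 0.06 and 0.08, while Nefh changed sign in chow, with -0.02 against 0.04 in the high-fat diet. The neurofilament folds other than that of Nefm therefore lay at most 0.08 log2 units above the middle of the listed tests. Only significant tests are listed, so that middle is not the middle of all expressed genes.

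Among enriched tests alone, the order of the 4 genes was Prph, Nefm, Nefl and Nefh in both diets. Of enriched chow tests, 50.4% had a lower fold than Nefm, 23.9% a lower fold than Nefl and 10.8% a lower fold than Nefh. In the high-fat table these shares were 83.1%, 31.9% and 24.1%. Prph was above 99.4% of enriched tests in chow and above 99.2% in the high-fat table.

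**Figure D3:**
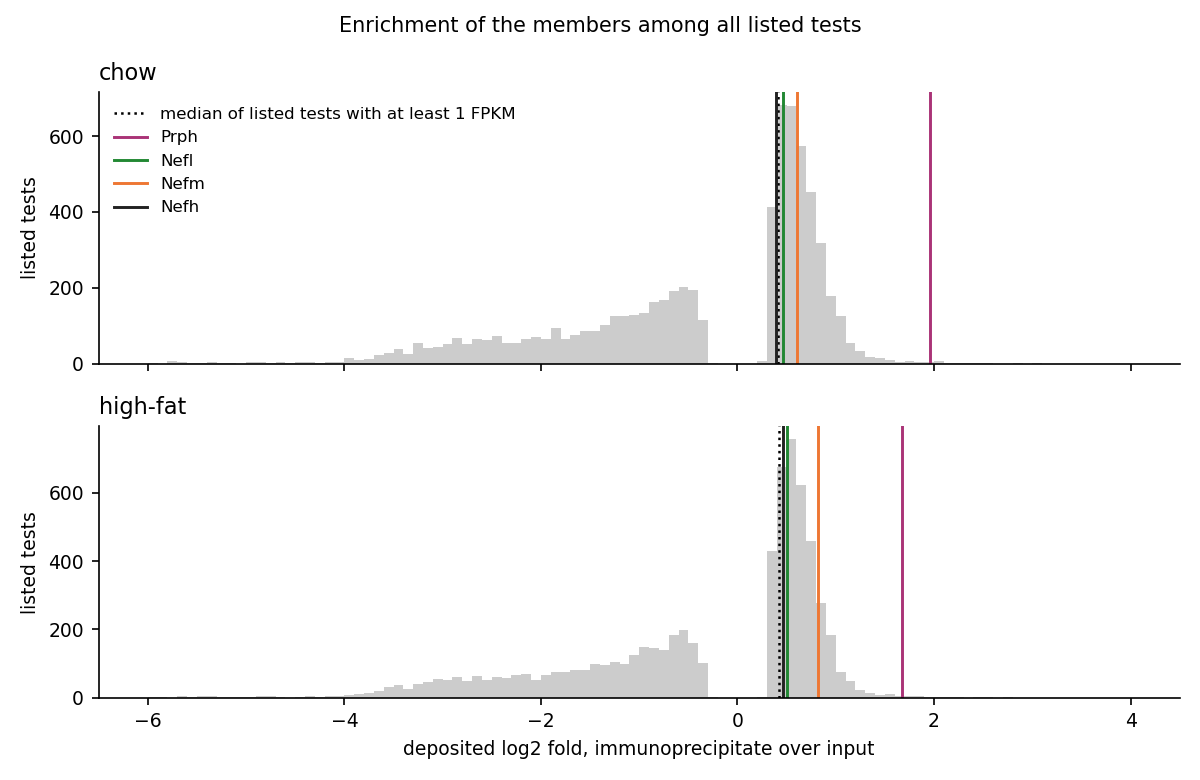
Histograms of the deposited log2 fold (IP over input) of all listed tests with a finite fold, chow above and high-fat diet below, with coloured lines at the 4 genes and a dotted line at the median of tests with at least 1 FPKM. Nefl and Nefh sit beside that median of 0.41 and 0.42, and Prph lies in the upper tail at 1.96 and 1.67; the gap around 0 reflects that only significant tests are listed.

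The precision of the folds differed between the genes. Dividing the deposited log2 fold by the deposited statistic gave a standard error of 0.36 log2 units for Prph, 0.31 for Nefl, 0.45 for Nefm and 0.23 for Nefh in chow. In the high-fat table the standard errors were 0.37, 0.32, 0.44 and 0.24. The median over tests with at least 1 FPKM was 0.31 in each table. Nefm was the least precise of the 4 despite 84.7 FPKM in the chow input, while Nefl, which shares its locus, was near that median. Across tests with a deposited p above the smallest listed, 5e-05, standard errors taken this way were mostly wider than p implies. The deviate that a deposited p stands for exceeded the statistic there by a median factor of 1.96 in chow (3365 tests) and 1.95 after the high-fat diet (3448 tests). Prph had that smallest p in both diets, so it was not among those tests. With standard errors of the size given for the genes, the order among Nefl, Nefm and Nefh is not larger than the error of the folds.

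FPKM is scaled per length, so the levels of the subunits can be set side by side. The order of levels was Nefl, Nefm, Nefh and Prph in all 4 groups. In the chow input, Nefl made up 62.2% of the summed FPKM of Nefl, Nefm and Nefh, Nefm 30.7% and Nefh 7.11%. In the chow IP the shares were 60.5%, 32.9% and 6.58%. In the high-fat diet the share of Nefl was 63.0% in the input and 58.8% in the IP, that of Nefm 30.1% and 34.9%, and that of Nefh 6.91% and 6.27%. The summed level was 276 FPKM in input and 392 FPKM in IP for chow, and 275 and 418 FPKM for the high-fat diet, a ratio of 1.42 and 1.52. The shares of the triplet thus moved by under 5 percentage points between input and IP, and with 1 value per group no test of that shift was possible. The shared bases of Nefl and Nefm can move both shares, and their part was not tested.

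Peripherin stood higher relative to the triplet in the IP than in the input. Prph stood at 1.05% of the summed triplet FPKM in the chow input and 2.87% in the chow IP. In the high-fat diet it stood at 1.31% in the input and 2.74% in the IP. For each FPKM of Prph the high-fat input held 76.6 triplet FPKM and the high-fat IP 36.5.

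Other intermediate filament genes went both ways. Of 10 such genes, 3 were enriched and 4 depleted in each diet, and 3 were not listed (Des, Sync and Lmnb1). Their median log2 fold was -0.65 in chow and -0.41 in the high-fat diet, beside 0.41 and 0.42 over listed tests with at least 1 FPKM. Alpha-internexin (Ina) went from 114 to 165 FPKM in chow (log2 fold 0.53, q = 0.00103) and from 113 to 174 FPKM in the high-fat diet (0.63). Its fold lay between those of Nefl and Nefm in both diets. The lamins Lmna (0.70 in chow, 0.75 in the high-fat diet) and Lmnb2 (0.47 in each), which line the nuclear envelope, were also enriched. Gfap fell from 28.7 to 3.75 FPKM in chow (log2 fold -2.94), and nestin (Nes, -2.34), vimentin (Vim, -2.32) and synemin (Synm, -0.65), which joins other filament proteins, were depleted as well. In the high-fat diet the same 4 genes were depleted, at -2.81, -2.74, -1.93 and -0.41.

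The annotation deposited with the tables gives a wider view of the same family. All 4 genes carry the terms intermediate filament and structural molecule activity. Of the listed chow tests with the term intermediate filament or neurofilament, the counts were 10 enriched and 6 depleted (median log2 fold 0.44). For the high-fat diet they were 9 enriched and 6 depleted (median 0.46). Prph had the highest fold of these tests in both diets.

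Genes that move, modify or remove filaments went both ways. Of 15 transport and turnover genes, 5 were enriched and 6 depleted in chow (median log2 fold -0.44) and 5 enriched and 5 depleted in the high-fat diet (median 0.14). Klc2 (1.15) and Stub1 (0.84) had the highest chow folds, and Macf1 (-1.37) and Kif5a (-0.97) the lowest. Klc2 is a light chain of the motor kinesin-1 and Kif5a a heavy chain that carries neurofilaments, Stub1 is a ubiquitin ligase of chaperones, and Macf1 links actin and microtubules. In the high-fat diet the folds of Klc2, Stub1, Macf1 and Kif5a were 1.16, 0.81, -1.32 and -0.92.

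The kinases that act on neurofilament tails were mostly enriched where listed. Of 12 genes of kinases and related enzymes, 5 were enriched and 1 depleted in both diets, and 6 were not listed, Gsk3b and Mapk3 among them. The median log2 fold was 0.72 in chow and 0.58 in the high-fat diet. Cdk5r2 (0.79) and Cdk5 (0.75), an activator and the kinase it activates, had the highest chow folds, and Cdk5r1 (0.63), the other activator, was the lowest of the enriched. In the high-fat diet Cdk5r2, Cdk5 and Cdk5r1 had folds of 0.83, 0.67 and 0.48.

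Microtubule genes were enriched wherever they were listed, apart from Map2 and Dcx. Of 9 tubulin genes 4 were enriched and 0 depleted in chow (median 0.74) and 5 enriched and 0 depleted in the high-fat diet (median 0.81), with Tubb2a at 1.13 and 1.15. Tubulin genes have near-identical copies, so these values are uncertain. Of 16 microtubule-associated genes 7 were enriched and 2 depleted in chow (median 0.44), and 8 were enriched and 1 depleted in the high-fat diet (median 0.52). Stmn3, a stathmin that destabilises microtubules, had the highest chow fold (1.13), and Dcx, which marks young neurons, the lowest (-1.35). Of 13 genes of the axon initial segment and node 4 were enriched in chow and 5 in the high-fat diet, with 0 depleted and medians of 0.53 and 0.46. Cntnap1, a protein of the paranode, had the highest chow fold of that list (0.61).

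Transcript length moved with these folds. Kif5a and Kif5b have longest annotated transcripts of 6295 and 6032 bases and were depleted, and Klc1 and Klc2 have 2504 and 3169 bases and were enriched. Across 5756 listed single-gene chow tests with at least 1 FPKM, Spearman's rho between the log2 fold and the longest transcript was -0.31, and across 5621 such high-fat tests it was -0.23. These points are genes that share the same libraries. Prph, with 1863 bases, had the shortest transcript of the 4 members and the highest fold, and Nefh, with 3994 bases, the longest and the lowest. Nefm and Nefl did not follow that order, since Nefm, with 3680 bases, had a higher fold in both diets than Nefl, with 3380 bases. The part of length in these folds was not tested.

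Markers of cell types set the scale of the comparison. Of 8 pan-neuronal genes 7 were enriched in each diet, with log2 folds from 0.53 to 1.00 in chow (median 0.69) and from 0.60 to 0.95 in the high-fat diet (median 0.78). Nefl and Nefh lay below the lowest of them in both diets, and Nefm within their range. Map2, a neuronal gene counted here with the microtubule-associated genes, went the other way in chow (353 to 240 FPKM, log2 fold -0.55). It was not listed in the high-fat table. All 6 astrocyte and all 6 oligodendrocyte markers, and 5 of 6 microglial markers, were depleted in each diet. The chow medians were -3.18, -3.32 and -3.47, and those of the high-fat diet -3.17, -3.35 and -3.54. A fold of IP over input does not separate the number of cells of a type from the RNA per cell. Of 5 genes of histamine neurons 3 were enriched in each diet. Hdc, which makes histamine, went from 8.17 to 28.5 FPKM in chow (1.80) and from 9.36 to 29.6 FPKM in the high-fat diet (1.66), and the receptor gene Hrh3 had folds of 1.05 and 0.86. Slc18a2, the vesicular monoamine transporter that these cells also use, was depleted at -0.37 in chow and not listed in the high-fat table, and Maob was not listed in either. Whether Prph RNA in the IP came from histamine neurons was not tested.

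**Figure D4:**
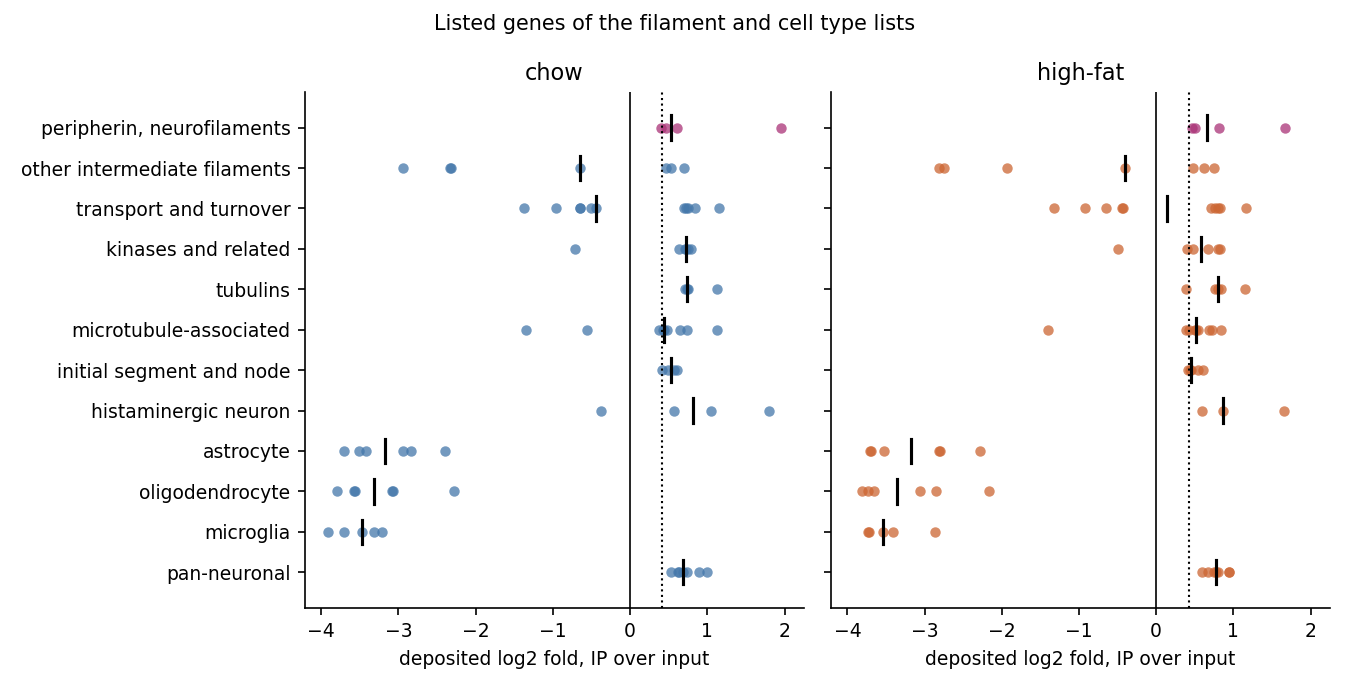
Deposited log2 fold (IP over input) of each listed gene of the filament and cell type lists, chow left and high-fat diet right. Points are genes and black ticks the median of a list. The solid line is 0 and the dotted line the median of all listed tests with at least 1 FPKM. Every glial marker listed lies below -2, and every listed gene of the pan-neuronal list, which does not include Map2, above 0. Prph at 1.96 and 1.67 stands to the right of the neurofilament genes.

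Likeness of pattern was measured as the Euclidean distance between the 4 group values of log2 FPKM, each gene centred on its own mean, over 4164 other single-gene tests listed in both diets with at least 1 FPKM in every group. The tests nearest to Prph were Tac2 (distance 0.0709), Crabp1 (0.115) and Hdc (0.116). Tac2 encodes neurokinin B, Crabp1 binds retinoic acid, and Hdc makes histamine. Their chow log2 folds were 1.91, 2.05 and 1.80, and their high-fat folds 1.58, 1.63 and 1.66. The nearest neurofilament gene to Prph was Nefm, at rank 846 (distance 1.13).

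The neurofilament genes lay among many tests of like fold. The nearest to Nefl were Nhlrc1 (0.00968), Hnrnpab (0.0114) and Snrpd3 (0.0135), and those nearest to Nefh were Dnajc5 (0.00498), a chaperone of synaptic vesicles, Rfx5 (0.0129) and Vdac2 (0.0146). The nearest to Nefm were Elavl4 (0.0204), a neuronal RNA-binding protein, Spats2l (0.0288) and Ik (0.0346). Nefh was at rank 245 from Nefl (0.0754), and Nefl at rank 1230 from Nefm (0.245).

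The diets were compared last, which asks whether 3 days of high-fat diet altered the enrichment of filament RNA in the IP over the input. The rule for the genes did not use this difference itself, but it is taken between the folds that listed them, and it exists only for tests listed in both tables. The log2 fold of the high-fat diet minus that of chow was taken relative to its median over 5148 tests, which was 0.0062. It was -0.29 for Prph (95% interval -1.30 to 0.73) and 0.21 for Nefm (-1.02 to 1.44). The values were 0.06 for Nefh (-0.59 to 0.72) and 0.03 for Nefl (-0.84 to 0.91). The planned z-test (two-sided, Benjamini-Hochberg adjustment) called 0 of 5148 tests, or 0%, and so none of the 4 genes, while 1 test, Rdh13, had an unadjusted p under 0.05. Most of these standard errors are too wide for deposited p-values above the smallest, as given above. Only genes significant in both diets entered as well, so a count of 0 says little. With the standard errors divided by the median factor of each table, 23 of 5148 tests had an unadjusted p under 0.05. Of them 1 was called, again Rdh13, which is named after its values were seen. The z-test is a normal approximation on groups of 4 libraries without values per library, so the differences are given with their intervals and without a p for a single gene. With the wider standard errors, a difference of 1 log2 unit lies inside the interval for Prph downwards and that for Nefm in either direction. With the reduced ones it lies outside both intervals, but some smaller differences lie inside. For Prph the reduction does not come from tests with a deposited p as small as its own. The data therefore do not show that the diets were alike.

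With standard errors divided by the median factor of each table, the interval for Prph ran from -0.81 to 0.23 and that for Nefm from -0.42 to 0.84. Whether that factor holds for Prph, whose deposited p was the smallest listed in both diets, was not tested. Those for Nefh and Nefl ran from -0.27 to 0.40 and from -0.42 to 0.48. All 4 intervals contained 0 under both standard errors.

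**Figure D5:**
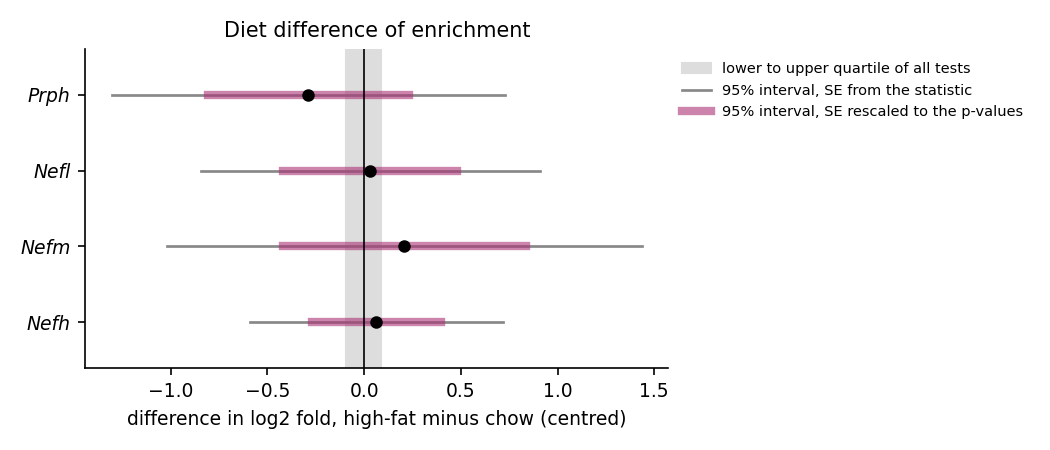
High-fat minus chow difference in log2 fold for the 4 genes, centred on the median of 5148 tests. Grey lines are 95% intervals with the standard error from the deposited statistic. Purple lines are those with that standard error divided by the median factor of each table, which tests with a p as small as that of Prph did not enter. The grey band runs from the lower to the upper quartile of all tests. Each interval includes 0, with Prph at -0.29 and Nefm at 0.21.

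Levels in input and IP show where these differences lay, with the reservation that it is not stated whether both tables were scaled together. Over the 5148 tests the median log2 ratio of high-fat to chow was -0.01 in the input (quartiles -0.09 and 0.06) and -0.01 in the IP (quartiles -0.12 and 0.09). Prph in the high-fat group was at 124% of its chow level in the input and at 102% in the IP, a log2 ratio of 0.31 and 0.03. Nefm was at 97.8% in the input and 113% in the IP (0.18 on the log2 scale). Nefl was at 101% and 104%, and Nefh at 96.9% and 102%. The Prph input ratio and the Nefm IP ratio thus lay above the upper quartile of all tests, and the other ratios of these genes did not. The share of their ratios above it was that which an upper quartile leaves for all tests. No test was possible with 1 value per group. Tac2, Crabp1 and Hdc were picked as nearest to Prph on these same group values, so their likeness in this respect was fixed by that choice. Their input values in the high-fat group were at 125%, 138% and 114% of chow, and their IP values at 99.7%, 103% and 104%. Pnoc was at 94.2% in the input and 99.1% in the IP.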

How the data were processed

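The submitters' processing notes name Cuffdiff, Cufflinks 2.2.1, StringTie 1.3.4d and HISAT2 2.1.0, and the mouse build GRCm38.p6. How Cuffdiff was set and how libraries were scaled is not stated there. Per the labels' protocols, small amounts of RNA were amplified with oligo(dT) and random primers before library preparation. The authors deposited 1 table per diet with 1 FPKM for each group, the log2 fold, a signed test statistic (a score without unit), and the p-value and q-value. All entries are marked significant, and a gene that is not listed cannot be called unchanged. Entries that repeat 1 locus and its values were merged, which left 6686 chow and 6540 high-fat tests. Recomputed folds differed from the deposited log2 folds by at most 1.31e-05. Columns with values of single samples that were left unused numbered 0.

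The call for each diet was the authors' q-value at 0.05. The diet difference was tested on tests listed in both tables with finite folds and at least 1 FPKM in a group of each diet. Its standard errors came from fold over statistic. The two-sided z-test, run with SciPy 1.17.1, is a normal approximation. Its check on simulated data drew noise from the same standard errors that the test used, so it cannot show whether they fit. An exact test would need values per library, so no p for a single gene is printed from the z-test. The labels name no separate animals, so deposited p-values reflect the spread among the libraries, which may be technical. Named genes were the 4 members, the 3 nearest patterns of each, and at most 4 examples per list by highest and lowest chow fold. Intermediate filament, kinase, histamine neuron and other genes named beyond these were chosen after their values were seen. The members and lists were chosen with earlier results of these data known. Transcripts came from GENCODE M21 and the promoter from RefSeq (GRCm38.p6). Some genes of these lists are counted but not reported here by name.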

Additional observations from a re-analysis of the deposited data

How the results depend on the processing

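All 4 genes were enriched at the deposited q of 0.05 in each diet. At a q of at most 0.01 there were 2 in chow (Prph and Nefh), and 3 in the high-fat diet, which differs from 4 by less than 1.5 times, beside 38.7% of listed tests in each table. At least a 2-fold difference left 1 gene, Prph, in each diet. With folds centred on the median of listed tests, Nefh in chow became -0.017, while the other 7 folds stayed above 0. With 1 FPKM added to each value all 8 folds stayed above 0. The count of enriched tests among those with at least 1 FPKM was 3531 in chow and 3554 in the high-fat diet. The diet difference called 0 tests without centring and without a filter on FPKM. With the reduced standard errors it called 1, Rdh13 (difference -0.97), a gene of retinoid metabolism that is named after its values were seen. In none of these settings of the diet difference did Prph, Nefl, Nefm or Nefh pass or change sign. Over 5 genes, Ina and Prph included, the share of Nefl was 43.6% in the chow input, 41.8% in the chow IP, 44.2% in the high-fat input and 40.7% in the high-fat IP, lower by construction. No paired analysis was possible because the deposited tables give groups and not libraries, so the replicate numbers could not be used as a replicate block. For the same reason no library could be left out, and depth, which limits the precision, is unknown.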
